A study of Porolithon cf. onkodes and Sporolithon durum with 38 samples.

Results

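Fructose-bisphosphate aldolase (FBA) joins and splits fructose 1,6-bisphosphate and a pair of triose phosphates, and the reaction runs in both directions. In the plastid of algae and plants it belongs to the Calvin cycle, where it joins triose phosphates on the way to regenerating the acceptor of CO2, and in glycolysis it splits the sugar. Most photosynthetic eukaryotes carry separate plastid and cytosolic aldolases. In Porolithon cf. onkodes (P. onkodes), a calcifying crustose red alga of shallow reefs, the study's protein list names 3 aldolase transcripts. DN75582_c0_g4_i1 and DN75582_c0_g4_i2 are isoforms of 1 gene of the Trinity assembly, and their closest annotated match is a cytoplasmic isozyme of chickpea. DN74098_c0_g1_i1 is listed as a chloroplast FBA. The 3 transcripts, from 2 of the assembled genes, were selected on these same libraries, since the list holds transcripts that differed between treatments, and stand among 118126 transcripts in the count table. All 3 passed the filter of at least 5 counts in total, as did 29276 transcripts in all. Differences between treatments for these transcripts are therefore given as a description: no p-value of a single one is printed, and nothing is read from the number called.

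Fragments of the alga were held in flow-through aquaria for 3 months in 1 of 4 treatments, and RNA was taken from the pigmented surface layer. The control was at 27.2 °C and pH 8.0 (450 µatm pCO2). Elevated temperature (T) was at 29.5 °C and pH 8.0, reduced pH (pH) at 27.2 °C and pH 7.7 (1000 µatm pCO2), and the combined treatment (T+pH) at 29.5 °C and pH 7.7. The counts came from CEL-Seq2, a method that tags the 3′ end of each polyadenylated RNA with a barcode and a molecular identifier, with 5 libraries from T+pH and 4 from each of the other treatments. Each library came from a separate fragment of algae collected on the reef, from which epiphytes had been cleaned as far as could be done.

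Depth differed widely between the libraries. Total counts ranged from 78142 to 3012292, and the T+pH library PO15, the deepest, held 19.5% of all counts and 51.5% of those of T+pH. Its CPM (counts relative to the TMM-scaled library size) were the highest of the 17 libraries for 4.21% of all tested transcripts, and for 5.29% of the 17872 transcripts with a count in at least 9 libraries. Of 4 markers of photosynthetic red algal tissue, the R-phycoerythrin gamma chain had counts in 16 of 17 libraries, the photosystem II protein CP47 in 15, a PsbP-like protein in 17 and the iron-sulfur subunit of cytochrome b6-f in 10. The summed level of these markers was 74.2 to 161 CPM in T+pH, 43.6 to 72.4 CPM in T, 27.2 to 51.2 CPM in pH and 25.3 to 65.8 CPM in the control. All 5 sums in T+pH were above those of every other library, but no single marker was: this held in 4 of the 5 libraries for the R-phycoerythrin gamma chain, 3 for the PsbP-like protein, 2 for the cytochrome b6-f subunit and 1 for CP47. CP47 (DN73640_c0_g1_i1) had a lower estimate in T+pH than in the control (log2 fold change -1.06 ± 0.92, not called), and the sum in PO19 rests on 4 counts of CP47 and 1 of the PsbP-like protein, with the other markers at 0. The paper reports cytochrome b6-f as upregulated in T+pH and took its qPCR genes, CP47 among them, from expression results on these libraries. The higher sums in T+pH are therefore no independent evidence, and no share over all transcripts was computed for such sums. More cells with plastids and more of these RNAs per cell cannot be told apart in such samples, and the part of these markers in the aldolase levels was not tested.

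The chloroplast aldolase transcript DN74098_c0_g1_i1 was counted in every library, but mostly as a few molecules. In the control its level was 6.60 CPM in PO10, 6.58 in PO16, 20.4 in PO17 and 10.1 in PO4. In T it was 5.57 CPM in PO18, 6.88 in PO1, 1.65 in PO2 and 5.03 in PO8. In pH it was 5.45 CPM in PO11, 7.10 in PO14, 6.82 in PO3 and 8.46 in PO5. These 12 libraries together held 55 counts of the transcript, and only the control library PO17 exceeded 10.1 CPM among them. In T+pH the level was 36.3 CPM in PO12 (15 counts), 121 in PO15 (421 counts), 18.6 in PO19 (1 count), 9.58 in PO6 (16 counts) and 31.5 in PO7 (27 counts). All 5 T+pH libraries were above every T and pH library, and 3 of the 5 were above every control library. Among all tested transcripts, 0.396% had every T+pH library above every T library and 0.564% above every pH library. A transcript without a count in PO19 cannot meet this, and PO19 had counts for only 6810 transcripts. The shares are therefore higher among transcripts counted in PO19, such as this one, and were not computed for them. In PO19 1 count already gave 18.6 CPM, above every T and pH library. The level in PO19 rests on 1 count, for which the exact 95% interval ran from 0.470 to 104 CPM. In PO15 the interval was 110 to 134 CPM, and it lay above the intervals of the other 16 libraries.

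**Figure D1:**
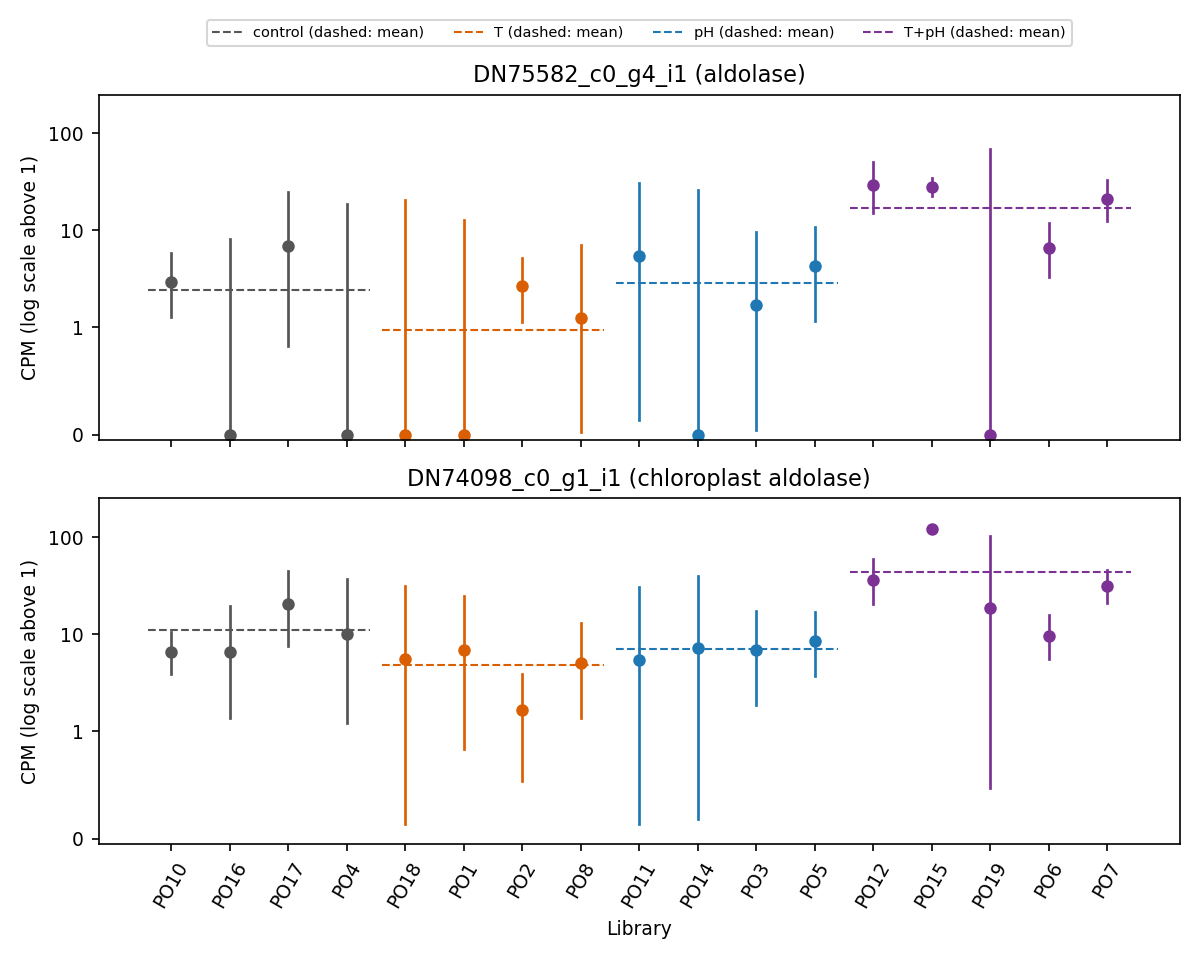
CPM of DN75582_c0_g4_i1 (top) and DN74098_c0_g1_i1 (bottom) in each of the 17 libraries, on an axis that is logarithmic above 1 CPM; vertical lines are exact 95% intervals (counting error only) and dashed lines are treatment means. For DN74098_c0_g1_i1 the T+pH library PO15 stood at 121 CPM and no library outside T+pH above 20.4 CPM, while for DN75582_c0_g4_i1 the T+pH libraries ranged from 0 to 29.1 CPM and the others from 0 to 6.79 CPM.

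By treatment, the mean level of DN74098_c0_g1_i1 was highest in T+pH (43.5 ± 44.8 CPM, SD, n = 5), followed by the control (10.9 ± 6.52, n = 4), pH (6.96 ± 1.23, n = 4) and T (4.78 ± 2.23, n = 4). Neighbours in this order differed by less than the larger of their SDs, T+pH and the control included. PO15 set both the mean and the SD of T+pH. Without it the other 4 libraries gave 24.0 ± 12.2 CPM, and the median of all 5 was 31.5 CPM.

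The other aldolase gene was counted less often. DN75582_c0_g4_i1 and DN75582_c0_g4_i2 had equal counts in 16 of the 17 libraries and differed in PO15, with 97 and 94 counts. Over all libraries they had 163 and 160 counts. Reads of such isoforms cannot be assigned to 1 of them with certainty, so that both are described through DN75582_c0_g4_i1 and are not independent of each other. In the control its level was 2.93 CPM in PO10 and 6.79 in PO17, with no count in PO16 and PO4. In T it was 2.64 CPM in PO2 and 1.26 in PO8, with no count in PO18 and PO1. In pH it was 5.45 CPM in PO11, 1.71 in PO3 and 4.23 in PO5, with no count in PO14. In T+pH it was 29.1 CPM in PO12 (12 counts), 28.0 in PO15 (97 counts), 6.58 in PO6 (11 counts) and 21.0 in PO7 (18 counts), and there was no count in PO19. Thus 3 of the 5 T+pH libraries were above all others, PO6 lay just under the highest control library, and PO12 rather than PO15 was the highest.

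The 6 libraries in which DN75582_c0_g4_i1 had no count had a median total of 198488 counts, against 861006 for the 11 libraries with a count. The deepest of the 6, PO16, had 532955 counts, more than 3 of the libraries with a count. A count of 0 allows a level of up to 6.58 CPM in PO16, 15.2 in PO4, 16.7 in PO18, 10.3 in PO1, 21.3 in PO14 and 55.7 in PO19 (3 counts in the library). Absence of the transcript could therefore not be shown in any of these, and the 0 in PO19 does not set that library apart from the other T+pH libraries. By treatment, the mean was 16.9 ± 13.03 CPM (SD, n = 5) in T+pH, 2.85 ± 2.45 in pH, 2.43 ± 3.22 in the control and 0.975 ± 1.26 in T (n = 4 each). The levels in pH, the control and T followed each other within their SDs, and T+pH differed from pH by slightly more than its own SD. Without PO15 the T+pH mean was 14.2 ± 13.2 CPM (n = 4), so that this transcript depended less on that library than DN74098_c0_g1_i1.

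In the model fitted to all tested transcripts (edgeR's quasi-likelihood F-test over the 17 libraries), both aldolase genes had higher estimates in T+pH than in any other treatment. For DN74098_c0_g1_i1 the log2 fold change was 3.65 ± 0.69 (SE) against T, 2.69 ± 0.65 against pH and 2.27 ± 0.61 against the control. For DN75582_c0_g4_i1 it was 3.37 ± 0.78 against T, 2.59 ± 0.80 against pH and 2.85 ± 0.78 against the control. The median of all tested transcripts was 0.01 against T, 0.08 against pH and 0.01 against the control. Against the control, the single stressors gave -1.38 ± 0.78 in T and -0.42 ± 0.75 in pH for DN74098_c0_g1_i1, and -0.53 ± 0.94 in T and 0.26 ± 0.98 in pH for DN75582_c0_g4_i1. The interaction term, by which T+pH exceeded the sum of both single effects on the log2 scale, was 4.07 ± 1.01 for DN74098_c0_g1_i1 and 3.12 ± 1.26 for DN75582_c0_g4_i1, and the lower estimates in T enter into it. By edgeR it was called for 0 of the 3 aldolase transcripts and for 0% of all tested transcripts, and a missing call does not show its absence. These comparisons share the T+pH libraries and are not independent of each other.

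Calls required an FDR (p adjusted by Benjamini-Hochberg over all 29276 tested transcripts) below 0.05 and a log2 fold change of over 0.3 in either direction. Against the control 0 of the 3 aldolase transcripts were called by edgeR and 0 by DESeq2, which does not show equal levels. By edgeR 37 of all transcripts (0.126%) were called higher in T+pH and 112 (0.383%) lower. Against T, 1 of the 3, DN74098_c0_g1_i1, was called higher in T+pH, beside 11 of all transcripts (0.0376%) called higher and 19 (0.0649%) lower. Against pH the same transcript was called higher, beside 22 of all transcripts (0.0751%) called higher and 122 (0.417%) lower. Since the transcripts were chosen for such differences, nothing is read from these counts.

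The calls depended on the fit and on single libraries. The call of DN74098_c0_g1_i1 against pH was absent with DESeq2, and its calls against T and pH were both absent when all libraries were thinned to the smallest total. Without PO15 none of the 3 was called in any of the comparisons with T+pH, and the log2 fold change of DN74098_c0_g1_i1 was 2.62 ± 0.76 against T, 1.72 ± 0.72 against pH and 1.25 ± 0.69 against the control. The call against T was also lost without PO2, and that against pH without PO11, PO14, PO3 or PO5, each left out alone. In the other direction, all 3 were called against the control without PO17 or PO6 and 1 without PO2, PO8, PO5 or PO7, and all 3 were called against T without PO10, PO16, PO4, PO14, PO5, PO19, PO6 or PO7 and 2 of them without PO17. For DN75582_c0_g4_i1 the estimates without PO15 were 3.09 ± 0.87 against T, 2.34 ± 0.89 against pH and 2.57 ± 0.87 against the control.

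**Figure D2:**
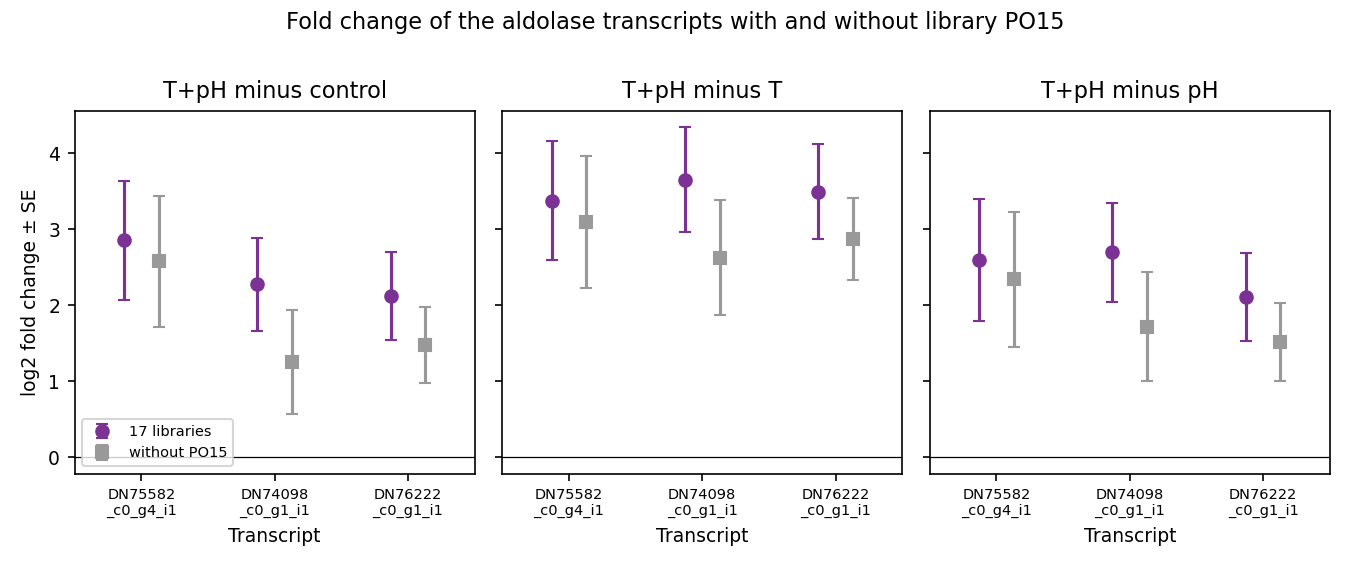
Log2 fold change ± SE of DN75582_c0_g4_i1, DN74098_c0_g1_i1 and a further aldolase transcript, DN76222_c0_g1_i1, between T+pH and each other treatment, with all 17 libraries (circles) and without the T+pH library PO15 (squares). All estimates stayed above 0, and those of DN74098_c0_g1_i1 moved most, from 2.27 to 1.25 against the control.

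Counts pooled over the libraries of a treatment showed the same dependence. For DN74098_c0_g1_i1 the pooled CPM in T+pH was 9.41 times that of the control (exact 95% interval 6.47 to 14.2, counting error only), and 2.50 times (1.58 to 4.04) without PO15, which held 87.7% of its T+pH counts. For DN75582_c0_g4_i1 the ratio was 7.85 (4.14 to 16.7) with PO15 and 5.03 (2.48 to 11.3) without it, and PO15 held 70.3% of its T+pH counts. Pooling weights each library by its depth. In the control, PO10 held 18 of the 29 counts of DN74098_c0_g1_i1 and 8 of the 10 of DN75582_c0_g4_i1. The ratio of mean CPM was 3.98 for DN74098_c0_g1_i1 (2.20 without PO15) and 6.96 for DN75582_c0_g4_i1 (5.83 without PO15). The shares of PO15 in the counts of both transcripts were above its share of 51.5% in the total counts of T+pH.

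Within single libraries, the counts of both aldolase genes can be set against each other. PO15 held 4.34 counts of DN74098_c0_g1_i1 for each count of DN75582_c0_g4_i1 (exact 95% interval 3.47 to 5.47), and the other 4 T+pH libraries together held 1.44 (0.950 to 2.20). The 12 libraries outside T+pH held 2.20 (1.35 to 3.68), with 2.90 (1.37 to 6.67) in the control, 1.33 (0.516 to 3.58) in T and 2.33 (0.842 to 7.41) in pH. The intervals cover counting error and not the spread between fragments, and PO15 is set apart here because DN74098_c0_g1_i1 was highest in it, so that no difference in balance is read from them. These ratios say nothing of which enzyme is more abundant, since transcripts differ in how well they are captured.

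A further transcript, DN76222_c0_g1_i1, has as its closest annotated match a plastid aldolase of Arabidopsis. It was also picked by the study on these libraries, is not among the 3 listed aldolases, and is shown because its 4219 counts make it the best measured of the aldolase transcripts. In the control its level was 75.5 CPM in PO10, 83.4 in PO16, 159.5 in PO17 and 35.4 in PO4. In T it was 22.3 CPM in PO18, 34.4 in PO1, 25.4 in PO2 and 51.6 in PO8, and in pH 16.3 CPM in PO11, 177 in PO14, 107 in PO3 and 64.5 in PO5. In T+pH it was 407 CPM in PO12, 883 in PO15, 223 in PO19, 83.2 in PO6 and 301 in PO7. As with the chloroplast aldolase DN74098_c0_g1_i1, PO15 was highest and PO6 lowest within T+pH, and 4 of the 5 T+pH libraries were above all others.

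The log2 fold change of DN76222_c0_g1_i1 in T+pH was 3.49 ± 0.62 against T, 2.10 ± 0.58 against pH and 2.12 ± 0.58 against the control, and without PO15 2.87, 1.51 and 1.48 in this order. With all 17 libraries, edgeR called it against T, where 0.0376% of all transcripts were called higher, but not against pH or the control. Its mean level was 379 ± 305 CPM (SD, n = 5) in T+pH and 253 ± 136 CPM (n = 4) there without PO15, against 88.5 ± 51.8 in the control, 33.4 ± 13.1 in T and 91.4 ± 68.4 in pH (n = 4 each). Its counts stood to those of DN74098_c0_g1_i1 as 10.6 to 1 in the 12 libraries outside T+pH (8.02 to 14.2), as 9.78 to 1 (7.47 to 13.01) in T+pH without PO15, and as 7.27 to 1 (6.56 to 8.07) in PO15. These intervals, too, cover counting error only.

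How the aldolases varied inside a treatment was not used to choose them, and was tested on the deviations of log2 CPM (prior count of 2) from the treatment means over the 17 libraries, with 100000 permutations within treatments, two-sided, and Benjamini-Hochberg adjustment over 6 relations. DN75582_c0_g4_i1 and DN74098_c0_g1_i1 were not shown to vary together (Pearson r = 0.46, permutation p = 0.243, adjusted 0.485; Spearman rho = 0.44, p = 0.119, adjusted 0.238). The correlation was 0.46 without PO14 and PO19, which lie farthest out on the x axis, and 0.09 over the 12 libraries outside T+pH. DN74098_c0_g1_i1 and DN76222_c0_g1_i1, both with plastid annotations, had r = 0.67 (permutation p = 0.00546, adjusted 0.0328) and rho = 0.58 (p = 0.0249, adjusted 0.150). Without PO15 and PO6, the farthest libraries on the x axis, r fell to 0.40, so that this relation rests on them. It was 0.56 without PO15 alone and 0.36 over the 12 libraries outside T+pH. DN75582_c0_g4_i1 and DN76222_c0_g1_i1 had r = 0.23 (permutation p = 0.482, adjusted 0.695) and rho = 0.28 (p = 0.336, adjusted 0.503), with r = 0.47 without PO14 and PO19, 0.09 without PO15 and -0.13 outside T+pH.

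The remaining relations of the 6 were those with the log10 total count of the library. For DN75582_c0_g4_i1 r was 0.54 (permutation p = 0.0638, adjusted 0.191) and rho 0.43 (p = 0.0993, adjusted 0.238), and r was 0.13 without PO19 and PO2, whose totals lie farthest from the rest of their treatments. For DN74098_c0_g1_i1 r was 0.002 (permutation p = 0.995, adjusted 0.995) and rho -0.14 (p = 0.624, adjusted 0.624), and without the same libraries r was 0.002. It was -0.58 over the 12 libraries outside T+pH and -0.45 without PO15, so that the r over all libraries depended on PO15. For DN76222_c0_g1_i1 r was 0.16 (permutation p = 0.579, adjusted 0.695) and rho 0.21 (p = 0.451, adjusted 0.542), and r was 0.20 without PO19 and PO2. Outside T+pH, r was 0.39 for DN75582_c0_g4_i1 and 0.12 for DN76222_c0_g1_i1, and without PO15 it was 0.47 and -0.03.

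**Figure D3:**
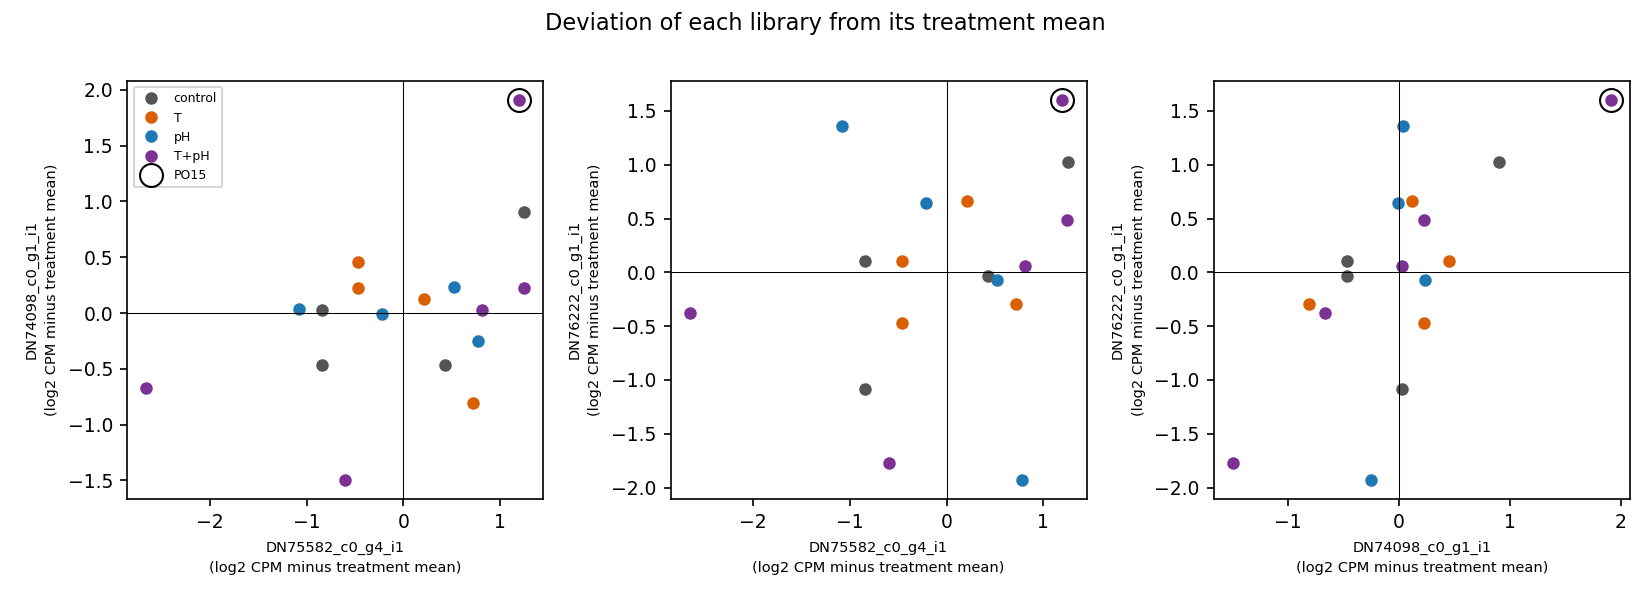
Log2 CPM of each library minus the mean of its treatment, for the pairs DN75582_c0_g4_i1 with DN74098_c0_g1_i1, DN75582_c0_g4_i1 with DN76222_c0_g1_i1, and DN74098_c0_g1_i1 with DN76222_c0_g1_i1; each point is 1 of the 17 libraries, coloured by treatment, and the ring marks PO15. PO15 lies at the upper right of each panel, and r is 0.46, 0.23 and 0.67.

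Other transcripts carry the same DN numbers of the assembly, here called components. The further ones of DN76222 carry c4 in their names, where DN76222_c0_g1_i1 carries c0, so that no shared sequence with it is implied. Components DN75582 and DN76222 hold 6 further transcripts, of which 5 passed the filter, and none of the 5 was called in any of the 6 pairwise comparisons (edgeR, 30 tests, lowest FDR 0.278, with 3 at an unadjusted p below 0.05; DESeq2 also called 0, with 2). Calls were rare over all tested transcripts too: in either direction they made up 0% in T and 0% in pH against the control and 0.0171% in pH against T, and the shares for T+pH are those given above. DN75582_c0_g1_i2 did not follow the aldolase isoforms of its component. Its mean level was 2.55 ± 2.94 CPM (SD) in the control, 18.2 ± 21.9 in T and 19.3 ± 18.2 in pH (n = 4 each) and 8.15 ± 4.76 in T+pH (n = 5). Its highest level, 50.1 CPM, was in the T library PO18, and it was at 0 in 5 of the 17 libraries. The log2 fold change of DN75582_c0_g1_i2 was 2.18 ± 0.83 in T (edgeR FDR 0.453), 2.78 ± 0.81 in pH (edgeR FDR 0.843) and 1.58 ± 0.79 in T+pH (edgeR FDR 0.471), each against the control. With 1 library left out these ranged from 1.42 to 3.60 in T, from 2.06 to 4.18 in pH and from 1.26 to 3.02 in T+pH. DN75582_c0_g3_i2 and DN75582_c0_g3_i3 had equal counts in all 17 libraries, 94 in total, with means between 4.66 CPM in the control and 6.90 CPM in pH. Their tests are therefore copies of each other.

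**Figure D4:**
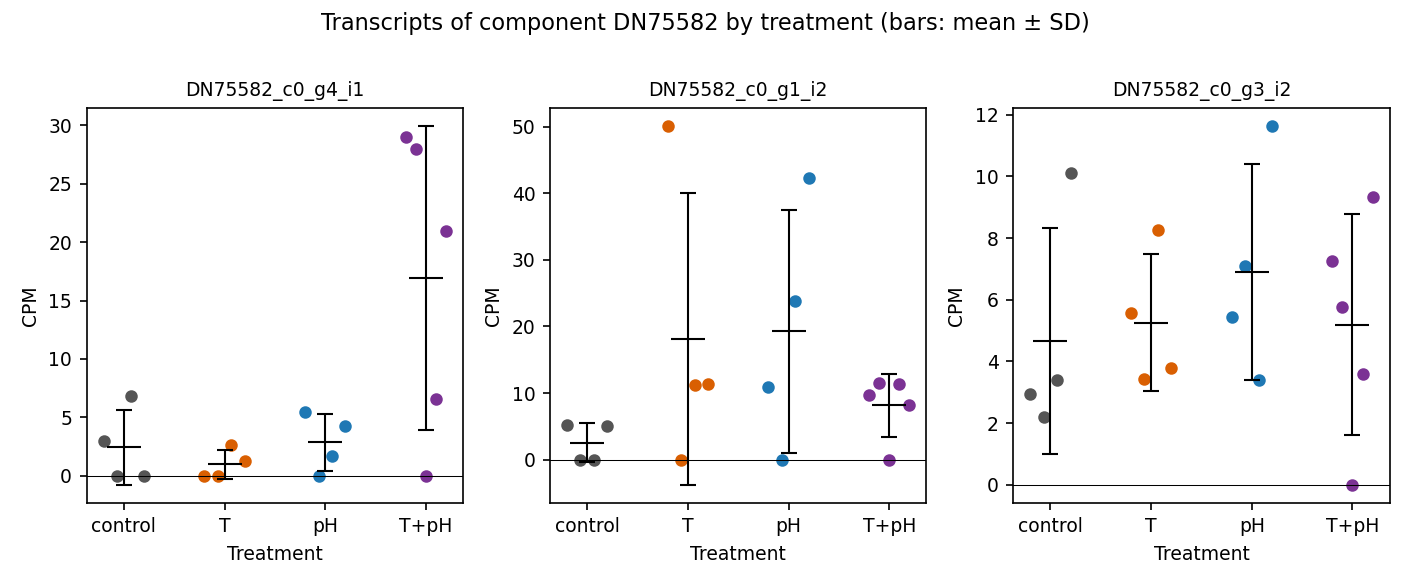
CPM of 3 transcripts of component DN75582 in each library (points) by treatment, with mean ± SD (bars; n = 4, and 5 in T+pH). The aldolase DN75582_c0_g4_i1 had its highest mean in T+pH (16.9 CPM), DN75582_c0_g1_i2 in pH (19.3 CPM) and DN75582_c0_g3_i2 in pH (6.90 CPM), and each of them had a library at 0 in T+pH.

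Aldolase stands between enzymes that make and use triose and fructose phosphates, and 10 transcripts of such enzymes, taken from the study's own lists by enzyme name, were all tested. Because the study drew these lists from these libraries, their counts are no independent evidence of a direction. Against the control, 4 of the 10 were called higher in T+pH and 3 lower, where the background was 0.126% and 0.383%. Against T these counts were 2 and 1 (background 0.0376% and 0.0649%), and against pH 4 and 2 (0.0751% and 0.417%). The median log2 fold change of the 10 was 2.29 against T, 1.80 against pH and 2.04 against the control. T and pH alone gave medians of -0.31 and -0.22 against the control.

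Phosphoribulokinase (DN72649_c1_g2_i2), which makes the acceptor of CO2, had a log2 fold change of 2.78 ± 0.47 against the control, and a further phosphoribulokinase transcript (DN73854_c3_g3_i3), not called, had 1.59 ± 0.51. Glyceraldehyde-3-phosphate dehydrogenase, which in the Calvin cycle produces the triose phosphate that aldolase uses, had 2.28 ± 0.49 (DN74877_c1_g1_i1, called) and 2.30 ± 0.78 (DN76651_c3_g2_i3, not called). Phosphoglycerate kinase (DN75667_c0_g1_i2), which acts 1 step before it, had 2.65 ± 0.67, and the translocator that exports triose phosphate from the plastid (DN75856_c1_g1_i1) had 1.94 ± 0.49. Phosphoglucomutase (DN72209_c0_g2_i1), which interconverts glucose phosphates, had 2.15 ± 0.61 and was not called.

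The other 3 transcripts had lower estimates. The beta subunit of pyrophosphate-fructose 6-phosphate phosphotransferase (DN68436_c0_g1_i1), which forms the substrate of aldolase in glycolysis, had a log2 fold change of -1.91 ± 0.48 against the control. Transaldolase (DN69532_c0_g1_i2), of the non-oxidative pentose phosphate pathway, had -2.14 ± 0.44. Glucose-6-phosphate dehydrogenase (DN74965_c0_g4_i1), which opens the oxidative branch of that pathway, had -2.70 ± 0.51. All 3 were called against the control. PO15 was the library with the highest CPM for 7 of the 10 transcripts of the list, and for 4.21% of all tested transcripts. Its margin differed between them. DN72649_c1_g2_i2 was at 411 CPM in PO15 and at most 395 CPM elsewhere, and DN75856_c1_g1_i1 at 288 and 145 CPM. For DN74098_c0_g1_i1 these levels were 121 and 36.3 CPM. For DN72649_c1_g2_i2 and DN74877_c1_g1_i1 all 5 T+pH libraries were above every other library. Without PO15 the number of the 10 called higher was 2 against T, 0 against pH and 1 against the control.

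**Figure D5:**
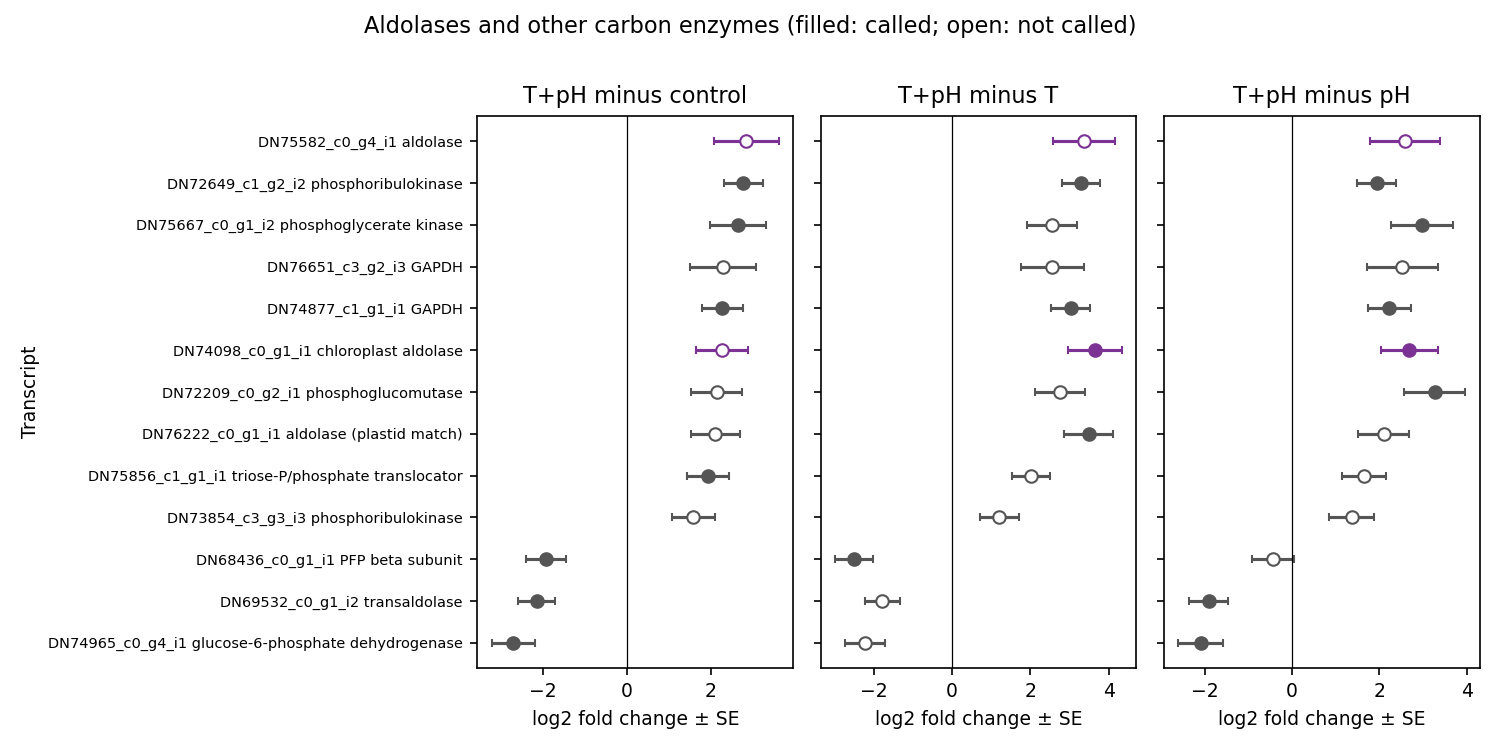
Log2 fold change ± SE in T+pH against each other treatment for the aldolase transcripts DN75582_c0_g4_i1 and DN74098_c0_g1_i1 (purple), the further aldolase transcript DN76222_c0_g1_i1 and 10 transcripts of neighbouring enzymes (grey); filled symbols are called, open symbols are not. Against the control the estimates of the aldolases were 2.85, 2.27 and 2.12, those of 7 neighbouring transcripts lay from 1.59 to 2.78, and those of the phosphotransferase subunit, transaldolase and glucose-6-phosphate dehydrogenase lay below 0.

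Over the 17 libraries, the transcripts with the profile most like that of DN74098_c0_g1_i1 were the glyceraldehyde-3-phosphate dehydrogenase DN74877_c1_g1_i1 (r = 0.91 of log2 CPM) and 2 isoforms of an unannotated gene, DN70036_c1_g1_i3 (0.90) and DN70036_c1_g1_i2 (0.89), among 17869 transcripts with a count in at least 9 libraries. DN76222_c0_g1_i1 followed in 4th place with r = 0.87. The counts of DN70036_c1_g1_i3 and DN76222_c0_g1_i1 were close: 7 and 7 in PO4, 178 and 206 in PO10, 2693 and 3060 in PO15, and 7 and 12 in PO19. Whether these transcripts share reads was not tested, so that their places are not taken as independent. For DN75582_c0_g4_i1 they were DN72351_c1_g1_i1 (0.86), DN77024_c0_g1_i1 (0.86) and DN69886_c0_g1_i2 (0.84), and DN76222_c0_g1_i1 took place 579 with r = 0.60. The r between DN75582_c0_g4_i1 and DN74098_c0_g1_i1 was 0.71. These correlations are a description: they include the differences between treatments, all points share the same libraries and depths, and PO15 was the highest library of DN74098_c0_g1_i1, DN74877_c1_g1_i1 and both isoforms of DN70036_c1_g1.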

How the data were processed

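CEL-Seq2 libraries were made from RNA of the pigmented tissue of P. onkodes. The authors trimmed the reads to 60 bp, mapped them with bowtie2 to a de novo Trinity transcriptome with spike-in sequences added, and counted molecular identifiers per transcript. The values they deposited are counts, without normalization and without pooling of replicates. Whether a correction for molecules with equal identifiers is included could not be told. Libraries PO9 and PO13, 2 in number, have no values among these counts and were not analysed here, nor was the other species. No sequences or transcript lengths were used.

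Transcripts with at least 5 counts over the 17 libraries (24.8% of all) were normalised by TMM and fitted in 1 model with edgeR 4.0.16 (R 4.3.3, limma 3.58.1; quasi-likelihood F-test, robust, earlier form as in the study). SE is the absolute log2 fold change divided by the square root of F. DESeq2 1.42.0 was an alternative. Intervals are exact (Clopper-Pearson, 95%), limits are 3 counts, and both cover counting error only. Summaries and figures were made with scipy 1.17.1, pandas 2.3.3, numpy 2.4.6 and matplotlib 3.10.9 in Python 3.11.15. The edgeR and DESeq2 tests were checked on simulated counts with known changes, and the permutation test on simulated deviations. Every pair of libraries of 1 treatment differed by more than sampling noise. Replicates are separate fragments.

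The aldolases, the enzyme list and the tests were chosen with earlier results of these data known. Named transcripts are the 3 aldolases, DN76222_c0_g1_i1, members of their assembly components, 10 enzymes of sugar phosphates, the 3 most correlated transcripts for each aldolase gene, the transcripts of beta-tubulin and heme oxygenase used by the study as qPCR references, and the tissue markers. Transcripts of the components were to be named if called in a pairwise comparison; DN75582_c0_g1_i2, DN75582_c0_g3_i2 and DN75582_c0_g3_i3 were not called and are named because they share a component with the aldolase isoforms. DN75582_c0_g1_i2 was singled out after its values were seen. Other choices of filter, scaling, test, depth and libraries are given in the closing section.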

Additional observations from a re-analysis of the deposited data

Results flagged for a closer look

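In 16 groups of 4 or 5 libraries (4 aldolase transcripts in 4 treatments), 1 library stood far from the rest of its group by Dixon's test. DN74098_c0_g1_i1 was at 121 CPM in the T+pH library PO15, and at 9.58 to 36.3 CPM in the other 4 T+pH libraries, a gap of 0.761 of the whole range. Chance gives such a value in about 1 of 20 groups if values are normally distributed, which was not checked for these CPM. The groups of both DN75582_c0_g4 isoforms are nearly copies of each other, so that the 16 groups are not independent. The same library was not set apart in DN75582_c0_g4_i1, where PO12 and PO15 had levels within counting error of each other.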

How the results depend on the processing

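The estimates for DN74098_c0_g1_i1 and DN75582_c0_g4_i1 in T+pH against the control, T and pH stayed above 0 under every alternative that was run. With the counts thinned to the smallest library total, DN74098_c0_g1_i1 gave 1.98 against T, 1.86 against pH and 2.38 against the control, from 17 counts in T+pH, 3 each in T and pH and 2 in the control. In this 1 random draw DN75582_c0_g4_i1 kept 6 counts in T+pH and none elsewhere, so that no fold change is given, whereas DN75582_c0_g4_i2 kept 7 in T+pH, 2 in the control, 1 in pH and none in T. Leaving out 1 library gave 1.25 to 2.71 against the control, 2.62 to 4.004 against T and 1.72 to 3.06 against pH for DN74098_c0_g1_i1, and 2.52 to 3.25, 3.09 to 4.46 and 2.32 to 3.09 for DN75582_c0_g4_i1. The lowest values for DN74098_c0_g1_i1 were those without PO15. Relative to the study's qPCR references, beta-tubulin and heme oxygenase, the log2 ratio of pooled counts was 2.58, 4.08 and 3.42 for DN74098_c0_g1_i1 and 2.32, 2.69 and 2.85 for DN75582_c0_g4_i1, and these references had only 19 and 155 counts.

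The number of the 3 aldolase transcripts called was less stable, and the causes were not tested. Against the control, 3 rather than 0 were called without a scaling factor, without a filter and with only the libraries of both treatments in the fit, and leaving out 1 library gave 0 to 3. Against T, 3 rather than 1 were called under the same alternatives and 0 with thinned libraries, and leaving out 1 library gave 0 to 3. Against pH, 3 were called with only the libraries of both treatments, and 0 with DESeq2, with DESeq2's size factors in edgeR, with at least 5 counts in 4 libraries, with thinned libraries and with isoforms summed, and leaving out 1 library gave 0 to 1. The correlation of DN75582_c0_g4_i1 with DN74098_c0_g1_i1 within treatments was 0.09 to 0.60 over the alternatives and 0.34 to 0.56 with 1 library left out, and passed no threshold in any of them. The number of the 10 enzyme transcripts called higher in T+pH ranged over all alternatives from 1 to 6 against the control, from 2 to 5 against T and from 0 to 6 against pH. No paired analysis was possible because the treatments of P. onkodes share no replicate numbers. The alternative with PO9 and PO13 was not run, since the deposited counts hold no values for these libraries.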
